A study of Homo sapiens with 24 samples.

Results

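BAG1 and the related co-chaperone genes BAG2, BAG3, BAG4, BAG5 and BAG6 were followed across 24 Affymetrix arrays of a Burkitt lymphoma line with and without induced miR-28. The members were all probe sets, the groups of probes that each read 1 transcript region, whose single gene symbol in the platform annotation was a BAG gene, with the older name BAT3 read as BAG6. They comprised 17 probe sets of 6 genes, out of 19775 genes with a probe set: 3 each for BAG1, BAG2, BAG4 and BAG5, 1 for BAG3 and 4 for BAG6. No BAG probe set was annotated to several genes. All 17 lay above the intensity filter used for gene tests, so all 6 genes were among the 11380 genes tested.

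P3HR1 is an established B-cell line from a Burkitt lymphoma that carries Epstein-Barr virus. Control cells carried the vector pRTS1 with GFP, and miR-28 cells carried the same vector with GFP and the miR-28 precursor. In both, expression was switched on with doxycycline, and RNA was taken after 12 h or 24 h, giving 4 groups of 6 arrays. The doxycycline dose was 0.1 ug/ml in the treatment field of the labels and 1 ug/ml in the source field, in all groups alike. Each genotype consisted of 2 bulk populations, A and B, each induced 3 times per time point. All cells were induced, so a difference that existed before induction cannot be told apart from an effect of miR-28. The p-values measure the spread between inductions of 2 populations per genotype, not between many independently made populations.

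The BAG domain, for which the family is named, binds the ATPase domain of HSP70 chaperones. It promotes the release of nucleotide, and with it of the bound client protein. Whether each member acts in this way was not examined here. BAG proteins differ in the rest of the protein, which links HSP70 to other machines. BAG1 carries a ubiquitin-like domain that connects HSP70 to the proteasome, and was first described as a partner of BCL2 that protects cells from death. MicroRNAs pair through bases 2 to 8 of the mature strand, the seed, with sites in messenger RNAs and lower their stability or translation.

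The miR-28 precursor gives the mature strands miR-28-5p and miR-28-3p. Both are products of the induced hairpin, and only the 3p strand is shown because the reference sequences used here did not hold miR-28-5p. The RefSeq sequence of miR-28-3p on GRCh38.p14 lies on the plus strand at chr3:188688834-188688855, and capitals mark the seed.
hsa-miR-28-3p: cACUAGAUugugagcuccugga
The arrays measured messenger RNA, and neither mature strand was measured here.

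Arrays were scaled alike, with a 2% trimmed mean between 500.07 and 500.08. B-cell markers were bright: the 6 of 7 measured had a median intensity of 9640, against medians between 35.7 and 92.4 for T-cell, myeloid, NK-cell, and fibroblast and epithelial markers. The summed intensity of the 5 T-cell markers ranged from 117 to 429.1 over the arrays, and that of the B-cell markers from 52830 to 69820. The log2 ratio of the 3′ to the 5′ ACTB control probe set, a sign of RNA quality, exceeded 1 on 2 arrays: control B2 at 24 h (1.587) and miR-28 B2 at 12 h (1.05). No 2 arrays held identical values.

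BAG1 messenger RNA was lower in miR-28 cells, and the difference was called at 24 h on all 3 of its probe sets. On the brightest, control arrays at 24 h read 3969, 4158 and 4775 (lowest, median and highest intensity of 6). The miR-28 arrays at 24 h read 2933, 3191 and 3451. The groups did not overlap: every miR-28 array lay below every control array. This was so for 1.90% of all genes tested in that direction. The gene was lower by 24.5%, a log2 difference of -0.40 ± 0.07 (SE; limma adjusted p = 0.000705 over all 11380 genes). An exact two-sided permutation test over the 12 arrays gave p = 0.00216, the smallest that 924 splits allow. Groups that do not overlap give this value by necessity, so it adds nothing to the non-overlap. The test also treats the arrays as exchangeable, although they come from 2 populations per genotype. In all, 12 such tests were run for the 6 genes and 2 times. BAG1 was the only BAG gene called at 24 h, 1 of 6 genes, where 5.35% of all genes tested were called and 2.75% were called lower. After centring each array on its median, calls over all genes at 24 h were 395 higher and 149 lower, against 296 and 313; BAG1 was then at -0.35 and still called, with an adjusted p of 0.0129. Published work on miR-28 in lymphoma cells, which drew in part on these arrays, named BAG1 as a target, so its direction here is not independent evidence.

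**Figure D1:**
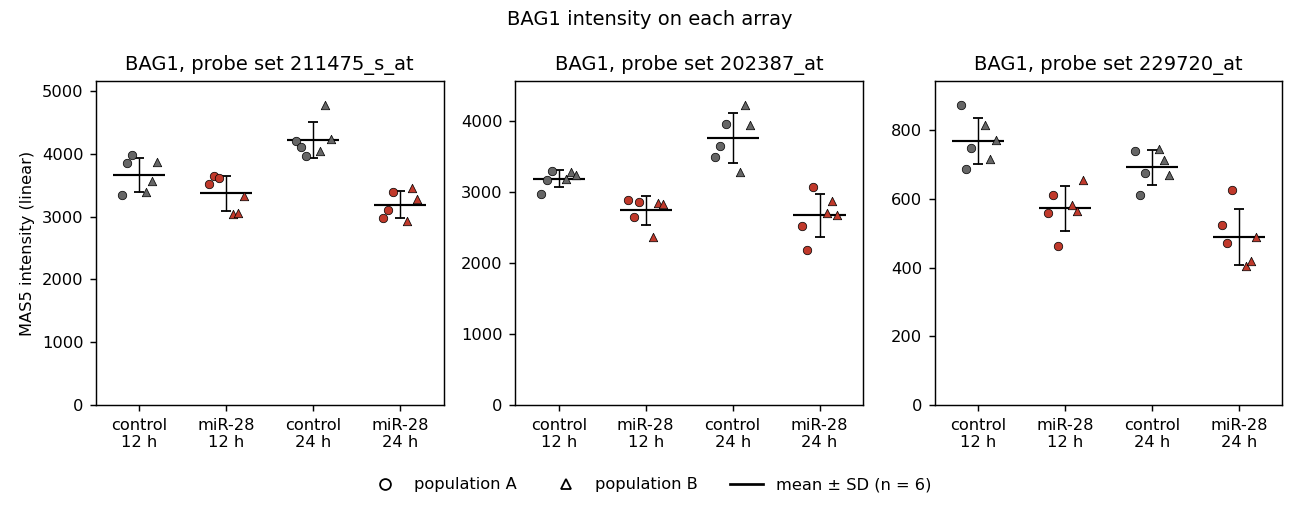
MAS5 intensity (linear axis from 0) of the 3 BAG1 probe sets on each of 24 arrays, by genotype and time. Circles are population A and triangles population B, and bars give the mean ± SD of 6 arrays. At 24 h the miR-28 points of the brightest probe set (left) lie between 2933 and 3451, all below the control points (3969 to 4775), while on the dimmest (right) the highest miR-28 array (627) reaches into the control range (613 to 746.4).

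The middle probe set read 3271, 3793 and 4218 in controls at 24 h and 2183, 2686 and 3069 in miR-28 cells. These groups did not overlap either, and the log2 difference was -0.49 ± 0.09 (adjusted p = 0.0129 in the limma fit over all 54613 probe sets). The dimmest read 613, 694.4 and 746.4 in controls and 404.5, 480.7 and 627 in miR-28 cells. Here 1 miR-28 array, A3, lay above the lowest control array. Its log2 difference was -0.51 ± 0.11 (adjusted p = 0.0312), and that of the brightest in the same fit was -0.40 ± 0.09 (adjusted p = 0.0300). Of all probe sets 0.553% were called in this comparison, and 0.762% had miR-28 arrays all below the control arrays. These shares include dim probe sets, whereas all BAG probe sets lay above the intensity filter. A fit of only the 27306 probe sets above the filter called 751 at 24 h. With median centring, all 3 BAG1 probe sets kept their direction and missed the threshold in the fit over all 54613 probe sets (adjusted p = 0.150, 0.0814 and 0.0730, in the order brightest to dimmest).

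At 12 h the same probe sets differed in how far apart the genotypes were. On the brightest probe set controls read 3335, 3709 and 3981 and miR-28 arrays 3045, 3418 and 3649, so the groups overlapped. Its difference of -0.12 ± 0.07 (SE) was not called in the gene fit (adjusted p = 0.590). On the middle probe set controls read 2972, 3207 and 3291 and miR-28 arrays 2366, 2835 and 2886, with no overlap. On the dimmest controls read 687.2, 760.1 and 874.2 and miR-28 arrays 462, 574 and 654.5, again with no overlap. Of all probe sets, 0.231% had miR-28 arrays all below control arrays at 12 h. In the probe-set fit the differences were -0.22 ± 0.09 and -0.42 ± 0.11 (adjusted p = 0.679 and 0.270), and neither was called. When BAG1 was represented by its dimmest probe set in the gene fit, the 12 h difference was called (-0.42, adjusted p = 0.0385).

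The 3 probe sets were set against each other directly, as differences of log2 values within each array, with 12 exact permutation tests. The 12 h difference on the dimmest was more negative than on the brightest by 0.30 (exact p = 0.0390, Benjamini-Hochberg adjusted p = 0.156), which did not pass. At 24 h the same pair differed by 0.10 (exact p = 0.357, adjusted p = 0.476). The lowest p-values were for the change from 12 h to 24 h in control cells. The dimmest minus the brightest gave -0.35 (exact p = 0.00433, adjusted p = 0.052). The dimmest minus the middle gave -0.38 (exact p = 0.0108, adjusted p = 0.0648). No test of the 12 passed after adjustment. Over the 24 arrays Pearson's r was 0.863 between the brightest and the middle probe set, and 0.524 between the brightest and the dimmest. With group means subtracted these were 0.505 and -0.099, as descriptions of arrays that share scaling and RNA.

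The order of the BAG1 group means on the brightest probe set was control at 24 h (4223 ± 287, SD, n = 6), control at 12 h (3665 ± 272), miR-28 at 12 h (3366 ± 272) and miR-28 at 24 h (3188 ± 218). No neighbouring pair in that order was called. From 12 h to 24 h the difference was 0.20 ± 0.07 in control cells (adjusted p = 0.0798) and -0.08 ± 0.07 in miR-28 cells (adjusted p = 0.604), where 6.14% and 4.66% of all genes were called. On the dimmest probe set the change with time in control cells had the opposite sign (-0.15 ± 0.11, adjusted p = 0.739). The larger miR-28 difference at 24 h than at 12 h, -0.28 ± 0.10, had an adjusted p of 0.546 in limma and was not called. limma called 0 of 11380 genes for this difference between times (0%), with 787 at an unadjusted p under 0.05, of which BAG1 was the 1 BAG gene.

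In both populations BAG1 was lower at 24 h, and the call passed in B. In the fit with separate population means it was -0.38 ± 0.09 for the populations lettered A (adjusted p = 0.0588) and -0.43 ± 0.09 for those lettered B (adjusted p = 0.0270). At 12 h these were -0.05 ± 0.09 and -0.20 ± 0.09. The difference between letters was not called at 24 h (-0.05 ± 0.13, adjusted p = 0.980) or at 12 h (-0.15 ± 0.13, adjusted p = 0.967); limma called 0 genes for it at 24 h (0%) and 1 at 12 h (0.00879%). The letters are not known to pair control with miR-28 populations. With each population mean as 1 value the 24 h difference stayed at -0.40 but was not called (adjusted p = 0.181).

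The control array B2 at 24 h had both the highest BAG1 value of its group (4775) and the highest ACTB ratio. Without it and the other array of high ratio the BAG1 difference at 24 h was -0.37 (adjusted p = 0.00169), so the call did not rest on them.

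The genes whose log2 values followed BAG1 most closely over the 24 arrays were TERF2IP, a telomere protein of the shelterin complex (Pearson's r = 0.848), and SKA1, which couples kinetochores to microtubules (r = 0.820). CCND3, the cyclin D3 gene (r = 0.817), the protease gene BLMH (r = 0.813) and the 14-3-3 gene YWHAH (r = 0.810) came next. In miR-28 cells at 24 h CCND3 was at -0.86 ± 0.10 and YWHAH at -0.98 ± 0.11 (limma adjusted p = 2.26e-05 and 1.43e-05), though the next brightest probe set of YWHAH gave -0.14 (adjusted p = 0.914). SKA1 was at -1.47 ± 0.21, BLMH at -0.67 ± 0.10 and TERF2IP at -0.50 ± 0.10 (adjusted p = 0.000188, 0.000329 and 0.00285). The genes were picked for likeness to BAG1 on the same arrays, with group differences left in. Their lower values in miR-28 cells at 24 h thus partly follow from the choice and are no separate result. After subtraction of the 4 group means the closest genes were others: GHDC (r = 0.784), PRR13 (r = 0.780), CDK9, the kinase of the elongation factor P-TEFb (r = 0.754), the proton pump gene ATP6V0C (r = 0.749) and the proteasome ATPase gene PSMC4 (r = 0.740). Within the BAG family r with BAG1 over all arrays was 0.468 for BAG6, 0.281 for BAG5, 0.017 for BAG2, -0.066 for BAG4 and -0.215 for BAG3. These correlations are descriptions over 24 arrays that share scaling, and 11379 genes were ranked.

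The other 5 BAG genes were not called at 12 h or at 24 h, in either direction. At 12 h limma called 0 of the 6 BAG genes. Of all genes 0.536% were called, 25 higher and 36 lower (12 and 33 after median centring). An unadjusted p under 0.05 was found for 1 BAG gene, BAG2, and for 1100 of 11380 genes tested.

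**Figure D2:**
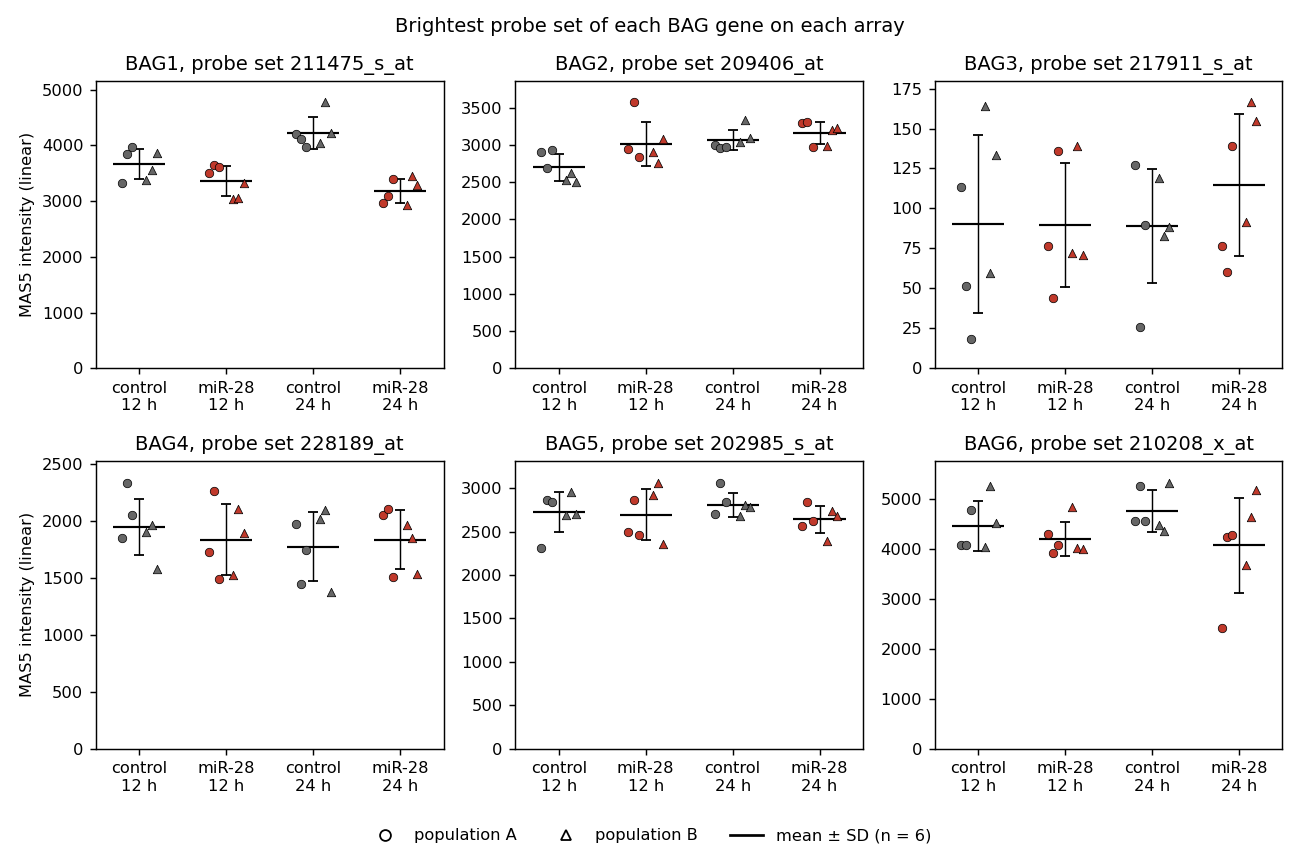
MAS5 intensity (linear axes from 0) of the brightest probe set of each BAG gene on each array, by genotype and time. Circles are population A and triangles population B, and bars give the mean ± SD of 6 arrays. In the BAG1 panel the miR-28 points at 24 h (2933 to 3451) separate from the controls, while in every other panel the genotypes overlap at both times.

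BAG2, which inhibits the ubiquitin ligase CHIP that marks HSP70 clients for degradation, read 2505, 2658 and 2936 in controls at 12 h on its brightest probe set. The miR-28 arrays at 12 h read 2761, 2922 and 3575. The groups overlapped, and the difference was 0.16 ± 0.06 (adjusted p = 0.393). At 24 h controls read 2965, 3024 and 3335 and miR-28 arrays 2976, 3215 and 3306, again overlapping. The 24 h difference was 0.04 (95% interval -0.08 to 0.17). In control cells every 24 h array of this probe set lay above every 12 h array, as for 0.806% of all probe sets. That difference of 0.19 ± 0.06 was not called (adjusted p = 0.0876), and on the middle BAG2 probe set the change with time was -0.30 ± 0.12.

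BAG3 links HSP70 to small heat shock proteins and to selective autophagy, and is itself switched on by heat shock factor. Its single probe set was dim. Controls read 18.18, 86.37 and 164 at 12 h and 26.1, 89.21 and 127.4 at 24 h, and miR-28 arrays 43.72, 74.4 and 139.2, then 60.5, 115.3 and 166.4. The groups overlapped widely at both times. The 24 h difference of 0.38 had a 95% interval from -0.45 to 1.21, which includes both the difference seen for BAG1 and no change. Without control A2, the array at 26.1, the difference was 0.09.

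BAG4, also called SODD, binds the death domain of TNF receptors and keeps them silent. On its brightest probe set controls at 24 h read 1371, 1855 and 2094 and miR-28 arrays 1503, 1905 and 2103, which overlapped. The difference was 0.05 (95% interval -0.21 to 0.31) at 24 h and -0.09 (-0.35 to 0.17) at 12 h. BAG5, which holds several BAG domains and binds parkin, read 2677, 2794 and 3066 in controls and 2395, 2656 and 2847 in miR-28 cells at 24 h on its brightest probe set. These overlapped too, with a difference of -0.09 (95% interval -0.24 to 0.06). The dimmer BAG5 probe sets gave 0.14 ± 0.14 and 0.22 ± 0.17, the opposite sign.

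BAG6 holds newly made membrane proteins in solution and passes faulty ones to the proteasome. On its brightest probe set controls at 24 h read 4347, 4551 and 5321 and miR-28 arrays 2403, 4247 and 5171. The lowest value was that of miR-28 A1, which was also the lowest of its group on the next 2 by intensity (2969 and 1715). The difference of -0.26 ± 0.13 was not called (95% interval -0.52 to 0.00, adjusted p = 0.270). Without miR-28 A1 it was -0.12 (adjusted p = 0.553).

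**Figure D3:**
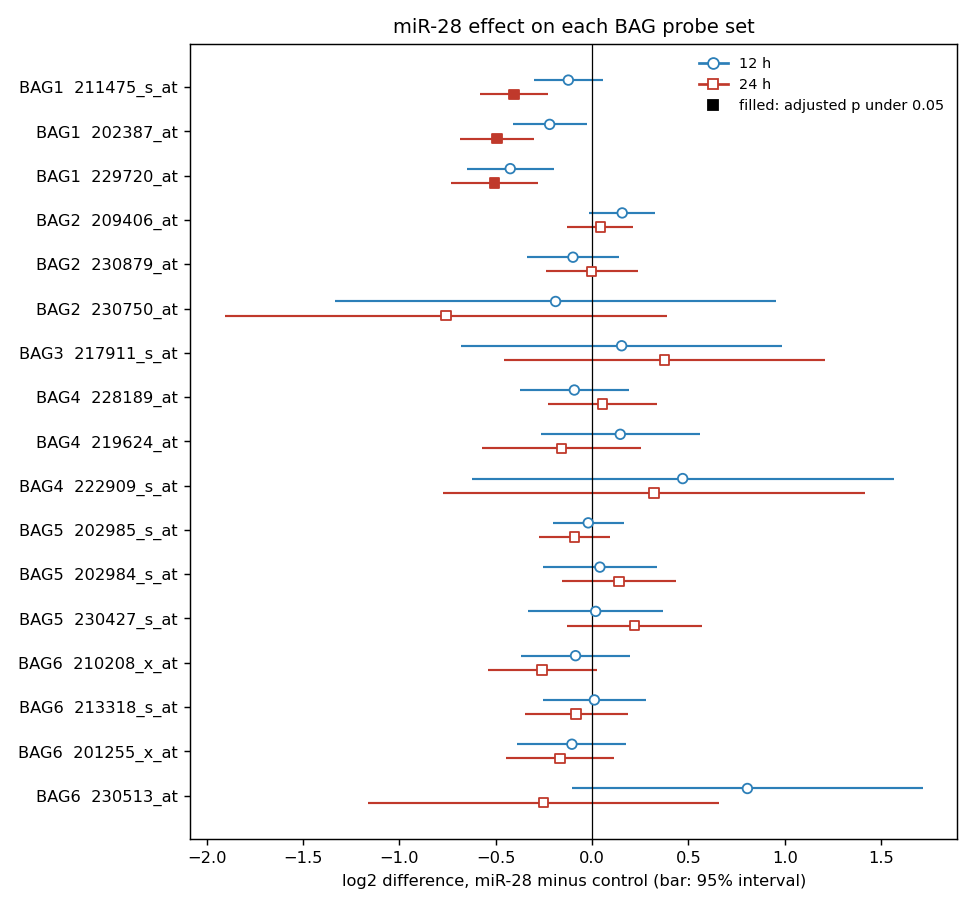
Log2 difference, miR-28 minus control, of each of the 17 BAG probe sets at 12 h and at 24 h, with 95% intervals from the limma fit over all probe sets; filled symbols have an adjusted p under 0.05. The 3 filled symbols are the BAG1 probe sets at 24 h (-0.40, -0.49 and -0.51), and the widest intervals belong to dim probe sets such as the dimmest of BAG2 (-1.90 to 0.39 at 24 h).

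Over all 17 BAG probe sets 3, all of BAG1, were called at 24 h and 0 at 12 h in the probe-set fit. Of all probe sets 0.553% were called at 24 h and 0.0385% at 12 h. The fit of only the 27306 probe sets above the filter called 751 at 24 h and 45 at 12 h. At 12 h 2 of the 17, both of BAG1, had an unadjusted p under 0.05 in the fit over all probe sets. The share of all probe sets with such a p was not counted. In the gene fit 1100 of 11380 genes had one at 12 h.

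Genes that work with the BAG proteins were taken from 6 lists with 58 members, of which 51 had a probe set and 41 were tested. The lists were chosen with earlier results of these data known, so their shares of calls are no independent comparison with all genes. At 24 h 4 of the 41 were called lower and 0 higher (9.76% called, against 5.35% of all genes), with a median log2 difference of -0.03 against 0.02 over all genes. At 12 h 1 was called lower and 0 higher (2.44%, against 0.536%), with medians of 0.03 and 0.01. An unadjusted p under 0.05 was found for 11 of the 41 at 24 h, against 2135 of 11380 genes, and for 3 at 12 h, against 1100 of 11380, called genes included.

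Of the HSP70 genes, the chaperones that BAG domains bind, 5 of 12 were tested and 0 were called at 24 h; 2 had an unadjusted p under 0.05. They were HSPA5, the chaperone of the endoplasmic reticulum (-0.14 ± 0.06, adjusted p = 0.224), and the dim stress-inducible HSPA6 (-0.66 ± 0.31, adjusted p = 0.262). HSPA5 was called lower with the mean of its probe sets (-0.33, adjusted p = 0.0226) and with its next brightest probe set (-0.51). Over 41 alternatives HSPA5 ranged from -0.51 to -0.08 and was not called in 39. HSPA6 was at -0.36 without miR-28 A3 at 24 h. HSPA8 and HSPA1A were not analysed here. Among the other nucleotide exchange factors, which act on HSP70 as the BAG domain does, 1 of 7 tested was called lower at 24 h. This was HSPH1, a large HSP70-like factor, at 19950 ± 2430 in control and 15310 ± 1710 in miR-28 cells (SD, n = 6). In the same order the 12 h means were 18040 and 17350. The log2 difference of HSPH1 at 24 h was -0.38 ± 0.09 (adjusted p = 0.00882). Its other probe sets gave -0.20 ± 0.13 and -0.38 ± 0.17. HSPBP1, an exchange factor that also inhibits CHIP, was at -0.32 ± 0.10 and missed the threshold (adjusted p = 0.0702). It was called with the filter at the 75th percentile (adjusted p = 0.0382) and without miR-28 A3 at 24 h (-0.37). Over 40 alternatives HSPBP1 ranged from -0.50 to -0.13 and was not called in 38.

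Among the HSP70 and HSP90 co-chaperones 3 of 10 were called lower at 24 h, where 2.75% of all genes were. This list, too, was chosen with earlier results known, so the shares are no independent comparison. The called genes were 3 of the 5 listed genes of the DNAJ class, which delivers clients to HSP70. The other DNAJ genes were not called and had opposite signs: DNAJB2 was at 0.43 ± 0.22 (adjusted p = 0.303) and DNAJC7 at -0.09 ± 0.11 (adjusted p = 0.726). DNAJA1 fell from 16880 ± 566 to 13970 ± 1020, a difference of -0.27 ± 0.06 (adjusted p = 0.00759), and its other probe set gave -0.35 ± 0.11. DNAJB1 fell from 2670 ± 208 to 2142 ± 211, a difference of -0.32 ± 0.07 (adjusted p = 0.00665), and its other probe set gave -0.29 ± 0.13. DNAJA2 was lower on its brighter probe set at 24 h, with a log2 difference of -1.17 ± 0.17 (adjusted p = 0.00015), and was the 1 partner called at 12 h (-0.72 ± 0.17, adjusted p = 0.0497), a call that was lost in 30 of 41 alternatives, among them 10 of the 12 fits without 1 of the 12 h arrays. Its other probe set, of similar intensity, gave 0.23 ± 0.15 at 24 h and -0.12 ± 0.15 at 12 h, so the gene's probe sets disagreed in size at 12 h and in sign at 24 h. In the probe-set fit, of the probe sets of HSPH1, DNAJA1, DNAJA2 and DNAJB1, the brighter one of DNAJA2 alone was called, at 24 h. HSP90AA1 and HSP90AB1 were at -0.14 ± 0.09 and -0.16 ± 0.08, not called.

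The remaining partner lists had 0 called genes at both times in limma. Of the BAG3 partners, small heat shock proteins and autophagy genes, 5 of 8 were tested and 1 had an unadjusted p under 0.05 at 24 h. This was MAP1LC3B, the autophagosome protein LC3B (0.24 ± 0.09, adjusted p = 0.100), which was called higher after median centring (0.30, adjusted p = 0.0341). Over 41 alternatives MAP1LC3B ranged from 0.06 to 0.31 and was not called in 40. HSF1, the transcription factor of the heat shock response, was at -0.35 ± 0.30 (adjusted p = 0.586), and at -0.16 and -0.14 without miR-28 A1 or B1 and -0.53 without miR-28 B3. Of the BAG6 partners, which insert tail-anchored membrane proteins and degrade misplaced ones, 9 of 10 were tested and 0 had an unadjusted p under 0.05; UBQLN2 was at 0.14 ± 0.08 and the ubiquitin ligase gene RNF126 at -0.24 ± 0.13. Of the clients and receptors 5 of 10 were tested and 2 had an unadjusted p under 0.05 at 24 h. PINK1, the mitochondrial kinase, was at 0.50 ± 0.17 (adjusted p = 0.0936, and 0.0248 with the arrays of 24 h only). Over 40 alternatives PINK1 ranged from 0.05 to 0.70 and was not called in 39. NR3C1, the glucocorticoid receptor, was at 0.21 ± 0.08 (adjusted p = 0.112). BCL2, which BAG1 binds, was at -0.02 ± 0.28 at 24 h, with an adjusted p of 0.983.

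**Figure D4:**
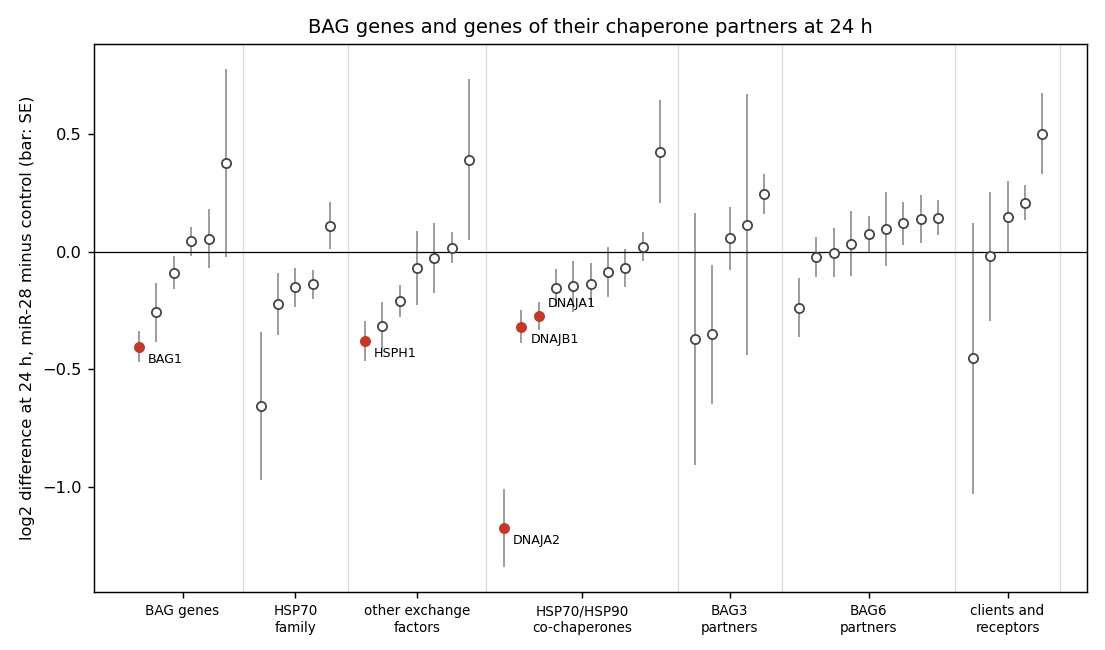
Log2 difference at 24 h, miR-28 minus control, of the 6 BAG genes and of the 41 tested members of the partner lists, each with its SE, ordered by size within a list; red points have an adjusted p under 0.05. The red points are BAG1 (-0.40), HSPH1 (-0.38), DNAJA2 (-1.17), DNAJB1 (-0.32) and DNAJA1 (-0.27).

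Promoter windows were looked at for BAG1 and the called partners, which were called lower at 24 h. Those of BAG2, BAG3, BAG5 and BAG6, which were not called, were looked at beside them. A part of heat shock factor in these differences was not tested. The windows, from RefSeq on GRCh38.p14, hold 300 bases: 250 before the gene start and 50 after. The letters GAANNTTC, a paired repeat within sites that heat shock factor binds, read the same on both strands. They occurred in 6.77% of 35116 windows and in 1 of 7 windows of the 5 BAG genes looked at, that of BAG2. Of the called partners, the DNAJA1 window held 2 matches, the 3 windows of DNAJB1 held 0, 2 and 1, and those of HSPH1 and DNAJA2 held 0. The BAG1 window held 0, and so did that of BAG3, which heat shock factor switches on. A window with 0 matches thus does not show that a gene lacks such sites. The BAG1 window is shown as the gene the results turn on, and the BAG2 window as the family member with a match, in capitals.
BAG1, chr9:33264659-33264958, minus strand: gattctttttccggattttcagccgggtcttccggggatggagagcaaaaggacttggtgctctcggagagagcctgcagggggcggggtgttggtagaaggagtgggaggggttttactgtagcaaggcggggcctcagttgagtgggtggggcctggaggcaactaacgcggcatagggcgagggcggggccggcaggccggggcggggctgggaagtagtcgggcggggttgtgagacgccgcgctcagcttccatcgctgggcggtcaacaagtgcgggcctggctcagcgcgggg
BAG2, chr6:57172076-57172375, plus strand: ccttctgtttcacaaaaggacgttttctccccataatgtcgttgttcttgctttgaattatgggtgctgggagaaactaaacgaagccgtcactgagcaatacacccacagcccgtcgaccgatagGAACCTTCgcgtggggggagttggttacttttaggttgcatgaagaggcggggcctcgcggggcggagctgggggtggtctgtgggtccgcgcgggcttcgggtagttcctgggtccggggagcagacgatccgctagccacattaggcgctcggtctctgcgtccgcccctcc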

How the data were processed

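The authors deposited MAS5 intensity, linear and per probe set, per the submitters' processing notes; version and settings are not given in the sources used here. The table held 54675 probe sets, of which 62 controls were left out. Symbols came from the platform annotation, updated through a RefSeq gene table. Precision is limited by how many arrays there are (median SE at 24 h 0.135).

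Intensities were put on the scale log2(intensity + 8), with a pseudocount near their 10th percentile, which understates changes of dim genes. The brightest probe set stood for a gene, and genes with a mean log2 intensity above 6.108, the median of the probe sets, were tested. Group means of genotype and time were fitted in R 4.3.3 (limma 3.58.1, statmod 1.5.0). Population entered as a random block (consensus correlation -0.0229), and statistics were moderated by empirical Bayes and adjusted by the Benjamini-Hochberg method; called means an adjusted p under 0.05. A second fit covered all 54613 probe sets without the filter (correlation -0.0308). Because both correlations were below 0, the block does not guard against differences between populations, and more genes were called with it. Without the block 531 genes were called at 24 h, against 609, and 52 at 12 h, against 61. Scripts were tested on simulated data. The likeness to BAG1 and the partner lists follow a set rule: every called partner, and from each list the 2 members of largest moderated statistic at 24 h, were named; DNAJB2, DNAJC7, HSP90AA1, HSP90AB1 and BCL2 were named beside these after their values were seen. The members and the lists were chosen with earlier results of these data known. Alternatives covered the pseudocount, filter, scaling, block, probe set, moderation and single arrays. BAG1 by its dimmest probe set and the fit over probe sets above the filter were chosen after seeing the data.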

Additional observations from a re-analysis of the deposited data

Results flagged for a closer look

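In 5 of 68 combinations of group and BAG probe set, 1 array stood apart from the other 5 by Dixon's criterion for 6 samples. Chance flags about 1 in 20 such groups. The control array B2 at 24 h was high on the brightest BAG1 probe set (4775, the others 3969 to 4227) and on the brightest of BAG2 (3335, the others 2965 to 3092), and its ACTB 3′ to 5′ log2 ratio was 1.587; the part of that ratio in these values was not tested. The other 3 arrays were low: miR-28 A3 at 12 h on the middle BAG2 probe set (464, the others 512.6 to 536), control A2 at 24 h on BAG3 (26.1, the others 82.67 to 127.4) and miR-28 B3 at 12 h on the dimmest BAG5 probe set (166, the others 232 to 261.5).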

How the results depend on the processing

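The BAG1 difference at 24 h kept its direction in 42 of 42 alternatives and its call in 39. Leaving out single arrays gave -0.43 to -0.37, and the call was kept each time. The call was lost with population means as the unit (-0.40), with population A alone (-0.38) and with population B alone (-0.43), the fits with the fewest values, so that 0 of 6 BAG genes were then called at 24 h. At 12 h BAG1 by its dimmest probe set was called (-0.42), making 1 of 6. Arrays of equal induction number showed no shared deviation across genotypes. Correlations of deviations lay between -0.094 and 0.068, and an array correlated best with its own number in 2 of 12 cases. Such correlations cannot tell whether equal numbers were induced together, and the labels do not say. With the replicate block BAG1 at 24 h was -0.40 (adjusted p = 0.00157), 617 genes were called against 609, and no call of a BAG gene changed.

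The calls of HSPH1, DNAJA1 and DNAJB1 at 24 h held in 37 of 41 alternatives each, and that of DNAJA2 in 36; all 4 were lost with population means and with either population alone. Population A alone gave -0.19 for HSPH1 and B alone -0.58. Over all genes, 609 calls at 24 h became 368 without the filter, 342 with the next brightest probe set, 48 and 38 with population A or B alone, and 0 with population means. At 12 h 61 became 30 without the filter or with the mean of all probe sets, 39 with the arrays of that time only, 18 with the next brightest probe set, and 0 with population means or 1 population; leaving out 1 array gave 28 to 74. The causes were not tested. Among other alternatives that left out no single array, 64 results on BAG1 and the count of BAG genes, and 966 others, kept direction and side of the threshold, 47 lost a call and 5 gained one (HSPA5 in 2 alternatives, and HSPBP1, MAP1LC3B and PINK1 in 1 each, all at 24 h).

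Of results that were not called, these changed sign. With the next brightest probe set the 12 h differences were -0.099 (BAG2), 0.147 (BAG4), 0.041 (BAG5) and 0.012 (BAG6), and those at 24 h -0.0022 (BAG2), -0.157 (BAG4), 0.139 (BAG5) and -0.043 (UBQLN2). DNAJA2, called at 24 h, was at 0.233. The differences between times were 0.097 (BAG2), -0.304 (BAG4) and 0.098 (BAG5). The changes with time were -0.297 (BAG2) and 0.328 (BAG4) in controls, and -0.201 (BAG2) and 0.195 (BAG5) in miR-28 cells. With the mean of all probe sets the 12 h differences were -0.044 (BAG2), 0.175 (BAG4), 0.013 (BAG5) and 0.157 (BAG6), and at 24 h -0.239 (BAG2) and 0.090 (BAG5). The differences between times were -0.102 (BAG4) and 0.076 (BAG5), and the changes with time 0.172 (BAG4, controls), -0.041 (BAG2, miR-28) and 0.148 (BAG5, miR-28). With population B alone the 12 h values were -0.272 (BAG3) and 0.016 (BAG4), those at 24 h -0.0089 (BAG2), -0.020 (BAG4), 0.020 (RNF126) and 0.024 (ATP6V0C), and the differences between times -0.036 (BAG4) and 0.024 (BAG6). The changes with time were -0.190 (BAG3) and -0.013 (BAG5) in controls, and 0.036 (BAG1), -0.043 (BAG4) and 0.060 (BAG6) in miR-28 cells. With population A alone they were -0.273 (BAG3, between times), 0.040 (BAG5, miR-28 cells) and 0.0051 (GHDC, 24 h). With median centring they were 0.011 (BAG5, between times), 0.020 (BAG1), 0.074 (BAG5) and 0.017 (BAG6) in miR-28 cells, 0.011 (ATP6V0C) and 0.023 (GHDC) at 24 h. Among dimmer probe sets it gave -0.014 (BAG6) and -0.0074 (BAG5) at 12 h and 0.053 (BAG2) at 24 h. BAG1 by its dimmest probe set changed by -0.148 with time in controls, BAG4 by -0.0023 in miR-28 cells after quantile normalization, and BAG5 by 0.015 there without the arrays of high ACTB ratio. Leaving out single arrays, the values ranged from -0.187 to 0.379 (BAG3) and -0.067 to 0.017 (BAG5) at 12 h. At 24 h, where BAG3 (0.090 to 0.533), HSF1 (-0.531 to -0.136) and HSPA6 (-0.904 to -0.364) kept their sign, they ranged from -0.016 to 0.107 (BAG4), -0.090 to 0.020 (ATP6V0C) and -0.103 to 0.049 (GHDC), and between times from -0.063 to 0.564 (BAG3). With time they ranged from -0.224 to 0.403 (BAG3, controls), and in miR-28 cells from -0.051 to 0.067 (BAG4), -0.060 to 0.015 (BAG5) and -0.158 to 0.064 (BAG6).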
